A study of Mus musculus with 29 samples.

Results

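The 8 genes described here encode enzymes that use tryptophan or its breakdown products, namely Ido1, Ido2, Afmid, Kmo, Kynu, Haao, Qprt and Wars. They were chosen by name, by matching gene symbols to the Ensembl identifiers of the count table, and they are 8 of the 54532 genes listed. The choice was made with results of the same contrasts in view, Ido1 being known to be high in several models, so every comparison of these 8 genes between a model and its control is a description that supports nothing on its own. All 8 passed the filter on low counts, a mean of at least 3 counts over all mice, which 18616 genes passed.

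RNA sequencing of colon segments was carried out on 29 mice in 9 groups, 6 models of colitis and 3 groups of untreated controls. The BALB/c groups were untreated wild-type mice (WT_control, n = 3), mice given DSS (n = 3), mice given DNBS (n = 3) and mice given an IL10 blocking antibody (IL10, n = 4). Untreated BALB/c Rag2-/- mice (Rag2_control, n = 3) were the controls of BALB/c Tbx21-/- x Rag2-/- mice, called TRUC (n = 4). TRUC mice develop colitis without treatment and by their labelled genotype lack T-bet as well as T and B cells. Untreated C57BL/6 Rag1-/- mice (Rag1_control, n = 3) were the controls of C57BL/6 Rag1-/- mice given naive CD4 T cells (TCT, n = 3) or anti-CD40 antibodies (antiCD40, n = 3). DSS, a sulfated sugar polymer that damages the epithelium, was given in the drinking water at 3% for 5 days with the colon taken at day 10, and DNBS, a hapten, as 3 mg by the rectum in 50% ethanol. The T cells were sorted as naive and the colon was taken 6 to 8 weeks after their transfer, anti-CD40, an agonist that activates antigen-presenting cells, was 50 µg with the colon taken at day 7, and 750 µg of antibody to the IL-10 receptor was given with the colon taken at 4 weeks or earlier. DSS, DNBS and IL10 were each set against the same 3 WT_control mice, and TCT and antiCD40 against the same 3 Rag1_control mice. The age of the mice was not analysed here.

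Most tryptophan that is broken down passes through the kynurenine pathway. Ido1, Ido2 and the liver enzyme Tdo2 open the tryptophan ring to N-formylkynurenine, Afmid removes the formyl group to give kynurenine, and Kmo, Kynu and Haao carry kynurenine on to quinolinate, which Qprt turns into a precursor of NAD. Wars charges tRNA with tryptophan and so draws on the same pool. In the gut the pathway is known for lowering tryptophan and for making kynurenines that bind the aryl hydrocarbon receptor, and Ido1 and Wars are textbook targets of interferon gamma.

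Ido1 (ENSMUSG00000031551) lies on the minus strand at chr8:24584136-24597009 of GRCm38 and Ido2 (ENSMUSG00000031549) beside it on the same strand at chr8:24531892-24576333, with 7802 bases between them. The closest stretch of their coding sequences is shown because it sets how well reads of the neighbours can be told apart. Both windows cover bases 238 to 287 of the longest reading frame (1224 bases in Ido1 and 1218 in Ido2), 38 of the 50 bases match, and capitals mark the 12 that differ.
Ido1: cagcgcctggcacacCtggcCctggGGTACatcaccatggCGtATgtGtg
Ido2: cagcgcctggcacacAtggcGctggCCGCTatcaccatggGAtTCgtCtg
No run of 50 exonic bases of Ido1 or Ido2 occurred in any other gene, so a read of that length could be told apart. The other members lie at chr12:108860030-108894174 (Wars, minus strand), chr11:117825924-117839908 (Afmid, plus), chr1:175620381-175662116 (Kmo, plus), chr2:43555329-43682715 (Kynu, plus), chr17:83831156-83847963 (Haao, minus) and chr7:127107114-127122226 (Qprt, minus). In Afmid 44.2% of the exonic bases belong also to the overlapping gene Gm20708 on the same strand, which had 0 counts, and 2.35% lie opposite exons of Tk1, so its counts are uncertain. Windows of 50 bases shared with another gene on the same strand made up 3.07% of those of Qprt and under 1% of those of Wars, Kmo, Kynu and Haao.

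Kmo and Haao are shown by the 300 bases around the RefSeq gene start (250 before and 50 after, GRCm38.p6), because their levels moved together over the mice, as given further on. Both windows lie inside the gene spans given above, downstream of the outermost start of each gene. Which start was used in these mice was not tested, so the windows may not be the promoters in use. Capitals in the sequence of Haao mark the core of the aryl hydrocarbon receptor motif, GCGTG.
Kmo, chr1:175631943-175632242, plus strand: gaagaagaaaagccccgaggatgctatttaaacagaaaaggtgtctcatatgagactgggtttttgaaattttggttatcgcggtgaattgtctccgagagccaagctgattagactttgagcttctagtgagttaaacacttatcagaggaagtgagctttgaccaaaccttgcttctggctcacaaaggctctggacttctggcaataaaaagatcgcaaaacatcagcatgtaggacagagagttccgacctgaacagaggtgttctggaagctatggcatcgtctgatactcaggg
Haao, chr17:83846741-83847040, minus strand: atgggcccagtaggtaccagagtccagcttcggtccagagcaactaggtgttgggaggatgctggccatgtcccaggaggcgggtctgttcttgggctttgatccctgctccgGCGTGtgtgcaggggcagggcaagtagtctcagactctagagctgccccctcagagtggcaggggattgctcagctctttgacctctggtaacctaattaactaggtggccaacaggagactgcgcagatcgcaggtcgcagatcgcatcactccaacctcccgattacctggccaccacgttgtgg
On both strands, 3 motifs were searched: GAAANNGAAA (the ISRE of type I interferon), TTCNNNGAA (the GAS of STAT factors) and GCGTG. They occurred in 3.44%, 8.3% and 32.4% of 32851 promoters of the same length. Neither window held the letters of the ISRE or the GAS, and GCGTG occurred in that of Haao at base 114 and not in that of Kmo. Of the other members with a RefSeq window, Qprt had the letters of the GAS at base 232, which read the same pattern on both strands, and Afmid had none of the 3 motifs.

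The libraries held 10725564 to 14977094 counts in genes (median 12287039), and 3 counts corresponded to 0.179 to 0.314 CPM. Levels are given as CPM, counts scaled to a library of 1000000 after TMM normalization, which is edgeR's correction for library composition. Transcripts of the deleted genes went against some labels. Rag2 transcripts were found in Rag2_control and TRUC (15 to 94 counts a mouse), in Rag1_control (6 to 20) and in antiCD40 (48 to 99), with 0 or 1 count in every other mouse, while Rag1 transcripts were found in TCT (20 to 33 counts) and at 4 counts or fewer in every other mouse. The libraries labelled Rag1_control and antiCD40 were therefore like the labelled Rag2-/- mice, and unlike those labelled TCT, in this check, and the protocol names Rag2-/- recipients for the transfer. Tbx21, the gene of T-bet, was at 26 to 52 counts in TRUC, labelled Tbx21-/-, and at 1 to 7 counts in Rag2_control. Its transcripts thus did not show the labelled deletion. Il10 was at 61 to 111 counts in the mice labelled as given the IL10 antibody, whereas the study describes Il10-/- mice. The study's methods also name C57BL/6 for wild-type mice and for those given DSS, where the labels give BALB/c, and other collection times for DSS and TCT, so the strain and time of these groups are uncertain in every value set against WT_control. Because of the Rag transcripts the values of TCT are also given against WT_control and those of antiCD40 against Rag2_control. These added pairs differ in labelled strain as well as colitis. TCT and WT_control also differ in their labelled Rag1 genotype, and antiCD40 and Rag2_control in which Rag gene is labelled as deleted. The parts of these cannot be told apart. B cell markers (Cd79a and Ms4a1, summed) were at 36.2 to 56.7 CPM in WT_control and at 0.556 to 1.83 CPM in all mice labelled Rag1-/- or Rag2-/-, and T cell markers were at 87.0 to 158 CPM in TCT and 3.49 to 4.86 CPM in Rag1_control. Epithelial markers were high in every group, with a sum of 5583 CPM or more in every mouse, and liver markers were found at 0.16 to 16.3 CPM. Of the 4 acinar pancreas markers only Cela1 was at a high level (49.5 to 511 CPM), while Prss2, Cpa1 and Pnlip were at or under 4.27 CPM in every mouse and at 0 in all WT_control mice. In colon segments, which hold many cell types, more cells of a type and more RNA per cell cannot be told apart.

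Counts of members called (adjusted p under 0.05 over all genes tested, edgeR's quasi-likelihood test) are given beside the share of all genes that were called higher, and nothing is read from them because these contrasts were in view when the genes were chosen. In TRUC, 5 of 8 members were called higher (Ido1, Ido2, Kynu, Kmo and Wars), where 22.4% of all genes were. In DSS 4 were called higher (Ido1, Ido2, Kmo and Wars), beside 17.7% of all genes. In DNBS 2 were called higher (Ido1 and Wars), beside 3.95% of all genes. In IL10 4 were called higher (Ido1, Kynu, Kmo and Wars), beside 27.2%. In TCT 4 were called higher (the same set as in IL10), beside 16.1%, and in antiCD40 2 (Ido1 and Wars), beside 10.9%. No member was called lower in these 6 comparisons. The median log2 fold change of the 8 members was -0.14 in DNBS, 0.66 in antiCD40, 1.15 in IL10, 1.34 in TRUC, 1.54 in DSS and 1.61 in TCT, where that of all genes lay between -0.03 and 0.02. Ido1 and Wars were called in every model, Kmo in 4, Kynu in 3 and Ido2 in 2, and Haao, Afmid and Qprt in none. Against WT_control, TCT had 2 members called higher (Ido1 and Wars) and 2 lower (Haao and Afmid), and against Rag2_control antiCD40 had 3 called higher (Ido1, Ido2 and Wars).

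**Figure D1:**
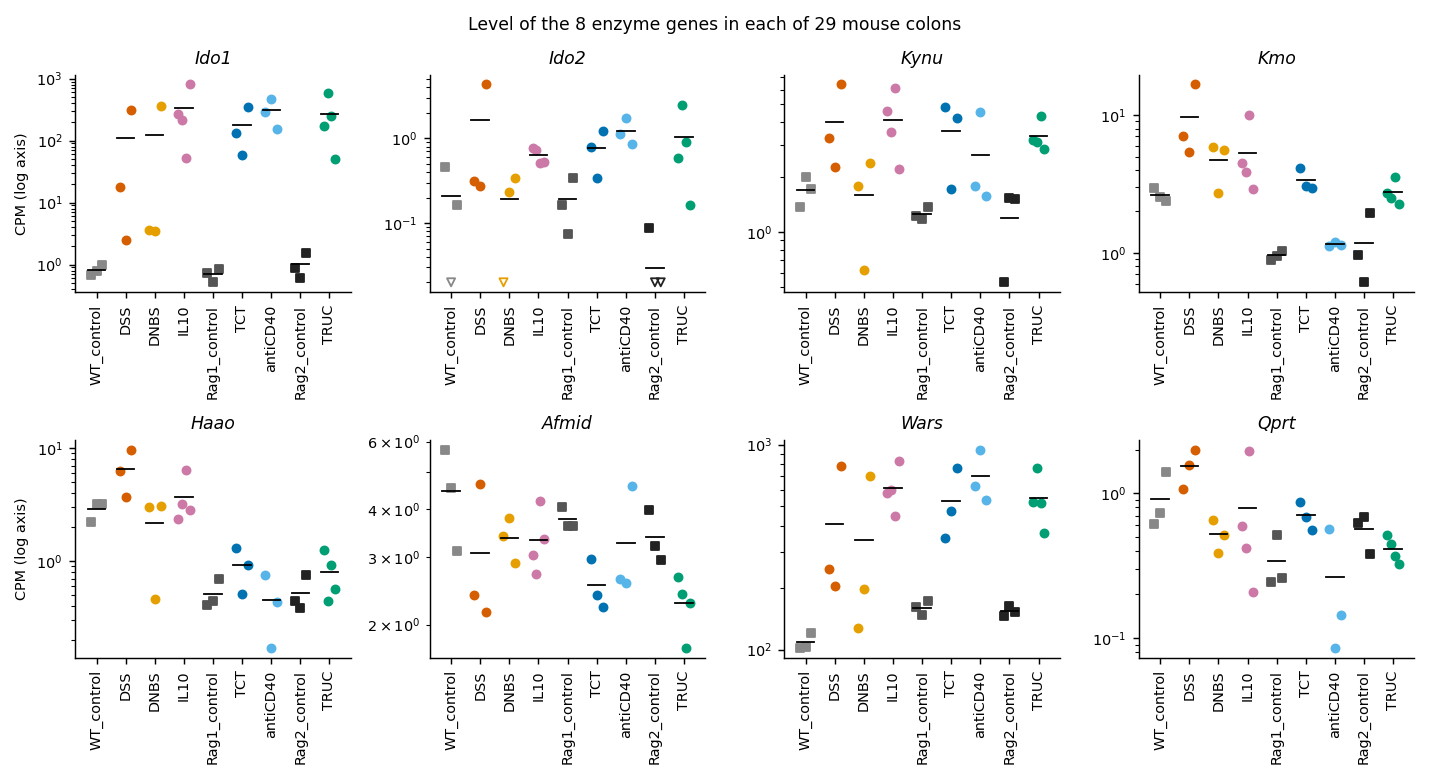
Level of each of the 8 genes in every mouse, in CPM on a log axis that differs between panels, with squares for controls, circles for models, bars for group means and open triangles at the foot of the panel for mice with 0 counts. Ido1 lay at or under 1.51 CPM in all 9 controls and reached 367 and 315 CPM in a single DNBS and a single DSS mouse, while Haao and Kmo were lower in the Rag-deficient controls than in WT_control.

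Ido1, the inducible ring-opening oxygenase, was close to absent from healthy colon and was high in almost every inflamed colon. It was at 0.686, 0.799 and 0.984 CPM in WT_control, at 0.73, 0.516 and 0.861 CPM in Rag1_control and at 0.885, 0.612 and 1.51 CPM in Rag2_control, which were 7 to 20 counts a mouse. The 3 control groups overlapped. In TRUC mice 2, 3, 4 and 5 Ido1 was at 171, 594, 254 and 49.8 CPM. In IL10 mice 1 to 4 it was at 268, 215, 52.1 and 808 CPM. These 8 mice all lay far above their controls, but within each group the highest mouse was over 10 times the lowest. In TCT mice 1, 3 and 5 Ido1 was at 132, 58.6 and 355 CPM, and in antiCD40 mice 6, 7 and 8 at 295, 474 and 154 CPM. Again no mouse overlapped a control.

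The 2 chemical models were different, because 1 mouse carried most of the Ido1 of each. In DSS mouse 8 had 315 CPM, against 17.9 CPM in mouse 5 and 2.53 CPM in mouse 6, so that 93.9% of the summed level of the group came from mouse 8. In DNBS mouse 16 had 367 CPM, against 3.58 CPM in mouse 11 and 3.49 CPM in mouse 14, and held 98.1% of the sum. The lower mice of both groups still lay above every WT_control mouse, at 3.07 to 21.8 times the mean of the controls, where the high mice were at 383 and 446 times.

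The fitted log2 fold change of Ido1 was 8.77 ± 1.98 (SE) in antiCD40, 8.66 ± 1.92 in IL10, 8.04 ± 1.87 in TRUC, 8.01 ± 1.95 in TCT, 7.23 ± 1.87 in DNBS and 7.07 ± 1.87 in DSS. The values lie within 1 standard error of each other, so no order among the 6 models can be read from them. Without DSS mouse 8 the value fell to 3.64 and without DNBS mouse 16 to 2.10, and in both cases the gene was no longer called. In DNBS the call was also lost without any 1 of the 3 control mice (WT_control 1, 2 or 4). In the other 4 models Ido1 was called whichever mouse was left out, with values from 7.08 to 9.10. With the other controls it was 7.78 ± 1.9 in TCT and 8.24 ± 1.9 in antiCD40.

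Ido2, the neighbouring gene for a second, weaker ring-opening enzyme, stayed rare throughout, with 231 counts in all 29 mice together, where Ido1 had 51586. It had 6, 0 and 2 counts in WT_control mice 1, 2 and 4, and 2, 1 and 4 in Rag1_control mice 2, 3 and 4. In Rag2_control it had 1, 0 and 0. The highest mouse was again DSS mouse 8 with 54 counts, where DSS mice 5 and 6 had 5 and 4. In TRUC mice 2 to 5 the counts were 8, 28, 10 and 2, and in antiCD40 mice 6 to 8 they were 12, 20 and 12. TCT mice had 9, 4 and 13 counts, IL10 mice 9, 7, 6 and 5, and DNBS mice 0, 3 and 4.

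Pooled over the mice of a group, the ratio of Ido2 to its controls was 37.6 in TRUC, with a 95% exact counting interval of 6.44 to 1520 that reflects the single count in the controls. It was 7.38 (3.53 to 17.8) in DSS, and 1.49 (0.509 to 4.43) without mouse 8, so the DSS value came from that mouse. It was 0.853 (0.263 to 2.69) in DNBS, 3.19 (1.41 to 8.12) in IL10, 4.11 (1.74 to 11.2) in TCT and 6.51 (2.91 to 17.1) in antiCD40. These intervals cover counting error only and not the spread between mice. Ido2 was called in TRUC and DSS, and in DSS the call was lost without mouse 8 and without WT_control mouse 2 or 4. Against Rag2_control, which held 1 count in all, it was called in antiCD40 as well, at a ratio of 45.7 (7.78 to 1840).

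Wars (ENSMUSG00000021266), the cytosolic tryptophanyl-tRNA synthetase, was the most abundant member in every control and rose from a level that was already high. It was at 102, 103 and 120.3 CPM in WT_control, at 160.4, 148 and 172 CPM in Rag1_control and at 146, 164 and 153 CPM in Rag2_control. The WT_control mice lay below all 6 Rag-deficient controls, at 0.703 times the mean of Rag2_control. The IL10 mice had 581, 603, 448 and 834 CPM and the TRUC mice 526, 770.4, 518 and 369 CPM. The TCT mice had 352, 473 and 765 CPM, and the antiCD40 mice 627.5, 944 and 535.5 CPM. None of these 14 mice overlapped its controls.

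In the chemical models Wars repeated the uneven pattern of Ido1. DSS mouse 8 had 783 CPM, where mice 5 and 6 had 247 and 204. DNBS mouse 16 had 706 CPM, where mice 11 and 14 had 127.5 and 198. Mouse 11 was thus only 1.18 times the mean of WT_control, although still above its highest mouse.

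The log2 fold change of Wars was 2.51 ± 0.48 in IL10, 2.13 ± 0.49 in antiCD40, 1.92 ± 0.49 in DSS, 1.82 ± 0.47 in TRUC, 1.73 ± 0.48 in TCT and 1.66 ± 0.48 in DNBS. Without DSS mouse 8 it was 1.06 and without DNBS mouse 16 it was 0.59, neither of them called, and without TCT mouse 5 it was 1.37 and not called. In DNBS the call was also lost without mouse 14 or any 1 WT_control mouse. With the other controls the value was 2.29 ± 0.49 in TCT and 2.19 ± 0.49 in antiCD40.

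**Figure D2:**
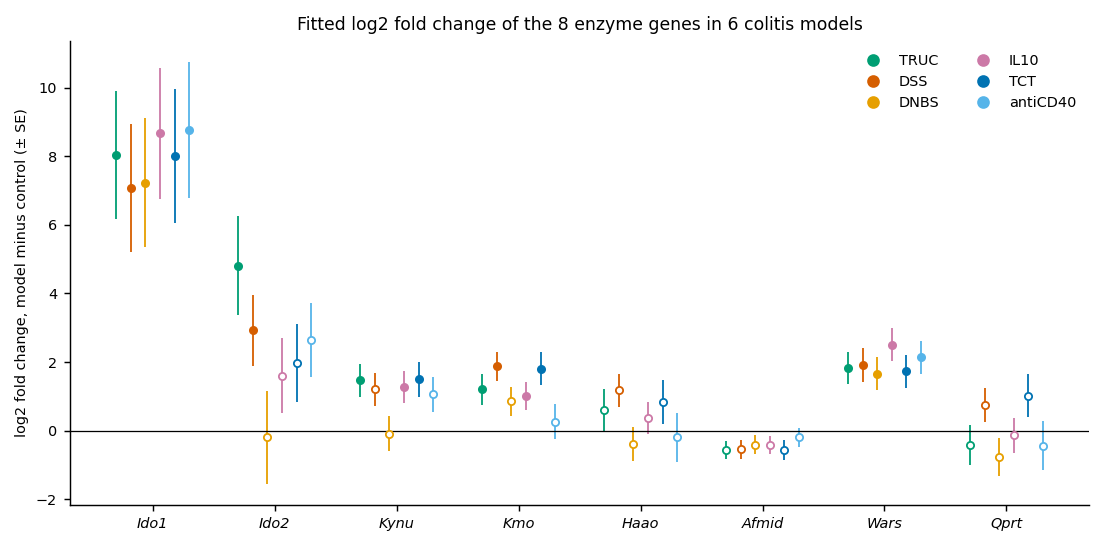
Fitted log2 fold change (model minus its control, y axis) of the 8 genes in 6 models, with bars for the standard error and filled points for genes called at an adjusted p under 0.05 in the fit over all genes. Ido1 lay between 7.07 and 8.77 and Wars between 1.66 and 2.51 in all 6 models, whereas Haao, Afmid and Qprt had open points throughout.

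Wars was compared with 19 other cytosolic tRNA synthetases, which charge tRNA with the other amino acids, to see whether it moved as one of its class. It had the largest log2 fold change of the 20 in each of the 6 models. The highest of the others reached 1.36 in TRUC (Cars), 0.69 in DSS (Cars), 0.68 in DNBS (Rars), 1.41 in IL10 (Rars), 0.70 in TCT (Aars) and 0.73 in antiCD40 (Vars). The medians of the others were 0.77, 0.36, 0.30, 0.47, 0.39 and 0.40 in the same order. This rank is a description, since Wars was chosen with these contrasts in view. Of the other synthetases, 15 of 19 were called higher and 0 lower in TRUC, where 22.4% of all genes were called higher, and 13 and 0 in IL10, beside 27.2%. Most were not called in the remaining models, with 7 higher and 1 lower in DSS beside 17.7% higher, 5 and 0 in TCT beside 16.1% and 4 and 0 in antiCD40 beside 10.9%. In DNBS 0 of 19 were called by edgeR, beside 3.95%, where 7 were higher at an unadjusted p under 0.05 and DESeq2 called 1 higher. Against the other controls 11 were called higher in TCT and 7 in antiCD40.

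**Figure D3:**
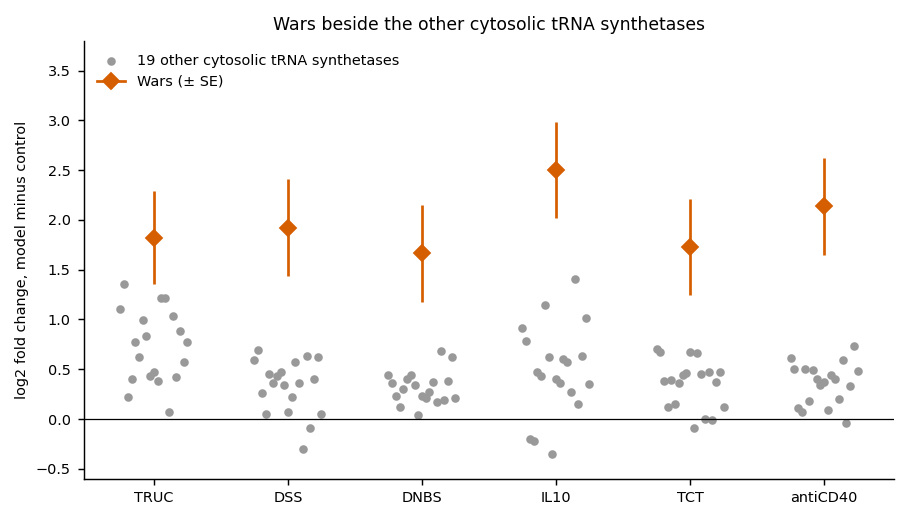
Log2 fold change (model minus its control, y axis) of Wars with its standard error, as diamonds, and of the 19 other cytosolic tRNA synthetases, as grey points, in the 6 models. Wars lay above all 19 in each model, and the highest grey point was at 1.41 in IL10.

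Afmid, the formamidase that makes kynurenine, had fold changes below 0 in every model, none of them called. It was at 5.72, 4.53 and 3.12 CPM in WT_control, 4.05, 3.61 and 3.61 CPM in Rag1_control and 3.98, 3.21 and 2.94 CPM in Rag2_control. The TRUC mice had 2.65, 2.40, 1.74 and 2.28 CPM and the TCT mice 2.97, 2.39 and 2.22 CPM, all below their controls. In the other 4 models the groups overlapped, with 2.16 to 4.65 CPM over their 13 mice. The log2 fold change was negative in all 6 models, from -0.57 ± 0.29 in TCT and -0.57 ± 0.27 in TRUC to -0.19 ± 0.28 in antiCD40, and Afmid was called in none of them. In a fit of the 2 groups alone it was called lower in TRUC (-0.56). Against WT_control, TCT was lower by a larger margin (-0.81 ± 0.29) and the gene was called, and without DSS mouse 6 it was called lower in DSS (-0.97). The shared exons named above make these counts uncertain.

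Kynu, which cleaves kynurenine and 3-hydroxykynurenine, was called higher in 3 of the 6 models. It was at 1.37, 2.00 and 1.72 CPM in WT_control, 1.22, 1.18 and 1.38 CPM in Rag1_control and 0.531, 1.53 and 1.51 CPM in Rag2_control. The TRUC mice had 3.17, 3.11, 4.31 and 2.85 CPM and the IL10 mice 4.55, 3.53, 6.09 and 2.20 CPM, in both cases above all controls. The TCT mice had 4.80, 1.71 and 4.17 CPM, and the DSS mice 3.27, 2.26 and 6.40 CPM, of which mouse 8 was again the highest. In antiCD40 mouse 7 had 4.54 CPM and mice 6 and 8 had 1.78 and 1.58, while the DNBS mice (1.79, 0.62 and 2.39 CPM) spread across the controls.

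Its log2 fold change was 1.47 ± 0.49 in TRUC, 1.27 ± 0.47 in IL10 and 1.5 ± 0.51 in TCT, all called. It was 1.21 ± 0.49 in DSS, 1.06 ± 0.52 in antiCD40 and -0.09 ± 0.51 in DNBS, none called. These calls were fragile: the call in TRUC was lost without Rag2_control mouse 1, that in IL10 without IL10 mouse 3 or WT_control mouse 1 or 4, and that in TCT without any 1 of 5 mice (TCT 1 or 5, or Rag1_control 2, 3 or 4). Against WT_control the value in TCT was 1.06 ± 0.49 and not called. DSS was called without mouse 6, at 1.49.

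Kmo, the hydroxylase that commits kynurenine towards quinolinate, was at 2.97, 2.53 and 2.38 CPM in WT_control and lower in the Rag-deficient controls, at 0.892, 0.958 and 1.03 CPM in Rag1_control and 0.974, 0.612 and 1.96 CPM in Rag2_control. In DSS it was at 7.05, 5.40 and 16.7 CPM in mice 5, 6 and 8, all above WT_control. In IL10 it was at 4.47, 3.85, 10.0 and 2.93 CPM in mice 1 to 4, where mouse 3 was 2.25 times the next and mouse 4 overlapped the controls. The TRUC mice had 2.73, 2.49, 3.57 and 2.28 CPM and the TCT mice 4.11, 3.08 and 2.96 CPM, above their Rag-deficient controls but close to WT_control. The antiCD40 mice were nearly level at 1.13, 1.20 and 1.15 CPM, and the DNBS mice had 5.91, 2.71 and 5.63 CPM.

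The log2 fold change of Kmo was 1.88 ± 0.42 in DSS, 1.81 ± 0.48 in TCT, 1.21 ± 0.45 in TRUC and 1.02 ± 0.41 in IL10, all called, and 0.85 ± 0.42 in DNBS and 0.27 ± 0.52 in antiCD40, not called. In DSS and TCT the call held whichever mouse was left out. In IL10 it was lost without mouse 3 (0.52) or any 1 control mouse, and in TRUC without TRUC mouse 4 or Rag2_control mouse 1 or 2. The value in TCT depended on the control: against WT_control it was 0.36 ± 0.43 and not called. In antiCD40 against Rag2_control it was -0.04 ± 0.50.

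Haao, which turns 3-hydroxyanthranilate into the precursor of quinolinate, was lower in every group labelled Rag-deficient than in WT_control, with or without colitis. It was at 2.21, 3.20 and 3.20 CPM in WT_control, but at 0.405, 0.442 and 0.689 CPM in Rag1_control and 0.443, 0.383 and 0.755 CPM in Rag2_control, with no overlap. The mean of WT_control was 5.44 times that of Rag2_control, which has the same strain label (the doubt about the strain of WT_control given above applies). Among the models, the Rag-deficient ones stayed low, with 1.25, 0.445, 0.916 and 0.570 CPM in TRUC, 1.31, 0.513 and 0.927 CPM in TCT and 0.752, 0.172 and 0.431 CPM in antiCD40. The DSS mice had 6.23, 3.69 and 9.68 CPM and the IL10 mice 2.36, 3.22, 6.35 and 2.82 CPM. In DNBS mice 11 and 16 had 2.99 and 3.07 CPM and mouse 14 had 0.465 CPM, a level in the range of the Rag-deficient mice.

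The log2 fold change of Haao was 1.18 ± 0.48 in DSS, 0.84 ± 0.65 in TCT, 0.59 ± 0.61 in TRUC, 0.37 ± 0.46 in IL10, -0.19 ± 0.71 in antiCD40 and -0.39 ± 0.50 in DNBS, none called. In DSS all mice lay above WT_control, and the gene was called without mouse 6 (1.47). The direction in TCT turned with the control, since against WT_control, which differs from TCT in labelled strain and Rag1 genotype too, it was -1.64 ± 0.55 and called lower. The levels of B cell markers moved with this, at 0.556 to 1.83 CPM in TCT and 36.2 to 56.7 CPM in WT_control, and their part in the result was not tested.

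Qprt, the last member before NAD, was rare, with 246 counts in all mice together. It was at 0.610, 0.733 and 1.39 CPM in WT_control, 0.243, 0.516 and 0.258 CPM in Rag1_control and 0.620, 0.689 and 0.378 CPM in Rag2_control. The DSS mice had 1.07, 1.57 and 2.00 CPM, and IL10 mouse 3 had 1.97 CPM, where the other IL10 mice had 0.590, 0.416 and 0.209 CPM. All 3 TCT mice (0.873, 0.684 and 0.556 CPM) lay above Rag1_control, while the TRUC mice (0.326 to 0.516 CPM), the DNBS mice (0.388 to 0.657 CPM) and the antiCD40 mice (0.0857 to 0.564 CPM) overlapped their controls. The log2 fold change ran from -0.77 ± 0.56 in DNBS to 1.02 ± 0.62 in TCT and Qprt was called in no model. Several of these values rest on fewer than 10 counts a mouse, so a difference could not be detected at this depth unless it was large.

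Compared per kilobase of exon, the order of the members changed with colitis. In WT_control, Wars stood at a mean of 31.5 RPKM (CPM per kilobase of exon), followed by Afmid at 1.26, Haao at 0.613, Kmo at 0.556, Ido1 at 0.451, Qprt at 0.345, Kynu at 0.276 and Ido2 at 0.057. In all 6 models Ido1 and Wars held the highest 2 places, with mean levels of Ido1 from 61.3 RPKM in DSS to 184 RPKM in IL10 and of Wars from 99.7 RPKM in DNBS to 204 RPKM in antiCD40. In IL10 Ido1 had the higher mean of the pair (184 against 179 RPKM), a difference well within the spread of the mice. Every other member stayed at or under 2.06 RPKM, the level of Kmo in DSS. By mean CPM, Ido1 was ordered IL10 (336 ± 328, SD), antiCD40 (308 ± 160), TRUC (267 ± 234), TCT (182 ± 154), DNBS (125 ± 210) and DSS (112 ± 176), and no neighbours in that order differed beyond their spread.

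The same mice stood out for several members. DSS mouse 8 was the highest of its group for all members but Afmid, in which it was the lowest. IL10 mouse 3 was the highest of its group for Kynu, Kmo, Haao, Qprt and Afmid, yet the lowest for Ido1 and Wars, which were highest in IL10 mouse 4. DNBS mouse 16 was the highest for Ido1, Ido2, Wars, Kynu and Haao. The marker lists moved with these mice. DSS mouse 8 had the highest sums of its group for neutrophil (2229 CPM, the others 485 and 732), macrophage and monocyte (2164 CPM, the others 1043 and 1106), dendritic cell (139 CPM, the others 46.0 and 55.3) and B cell markers (169.6 CPM, the others 54.2 and 115.1). IL10 mouse 3 likewise had the highest sums of its group for B cell (153.6 CPM, the others 16.8 to 61.1), dendritic cell (91.7 CPM) and T cell markers (115 CPM). Its macrophage and monocyte sum was also the highest (1439 CPM, the others 953 to 1104). DNBS mouse 16 had the highest epithelial (10750 CPM, the others 8532 and 9035) and B cell sums (41.8 CPM, the others 13.9 and 33.7) of its group. Its dendritic cell sum was also the highest (36.25 CPM, the others 25.75 and 34.0). It had the lowest macrophage and monocyte sum of its group (591 CPM, the others 645 and 677), but the highest T cell (20.04 CPM, the others 4.42 and 11.5) and neutrophil sums (294 CPM, the others 172 and 204). Most of that neutrophil sum was Ly6g (237 CPM), which was at 130 to 337 CPM in the controls, where S100a8 was at or under 0.383 CPM. Csf3r was also highest in mouse 16 (12.3 CPM). S100a8, S100a9 and Cxcr2 were higher in mouse 14 (32.3, 40.9 and 4.96 CPM) than in mouse 16 (18.9, 22.2 and 3.41 CPM). IL10 mouse 4 had the highest epithelial sum of all mice (15550 CPM, the other IL10 mice 11550 to 13400) and the lowest neutrophil sum of its group (232 CPM, the others 339 to 919). Ly6g (49.7 CPM), S100a8 (74.2 CPM) and Csf3r (12.2 CPM) were lowest in mouse 4. S100a9 and Cxcr2 were instead lowest in mouse 3 (31.1 and 2.40 CPM, where mouse 4 had 91.7 and 4.39). Mouse 4 also had the lowest dendritic cell (34.3 CPM) and B cell sums (16.8 CPM) of its group. Its macrophage and monocyte sum (953.4 CPM) was level with that of mouse 2 (953.5 CPM), and its T cell sum (77.9 CPM) was above that of mouse 1 (67.0 CPM). Its surface colonocyte sum was the highest of the group (7021 CPM), with Krt20 and Car1 at 3475 and 3442 CPM but Slc26a3 and Aqp8 lowest (78.9 and 25.4 CPM). Of the 5 neutrophil markers, 4 were called higher in DNBS (beside 3.95% of all genes), IL10 (27.2%) and TCT (16.1%). All 5 were called higher in TRUC (22.4%), DSS (17.7%) and antiCD40 (10.9%). The 7 macrophage and monocyte markers were all called higher in TRUC, DSS and TCT, 4 in IL10, 2 in antiCD40 and 0 in DNBS. In DNBS 0 dendritic cell, T cell or B cell markers were called, and in antiCD40 0 T cell or B cell markers. Ifng, the gene for interferon gamma, was at 47.5 CPM in DSS mouse 8 and 0.441 and 0.137 CPM in mice 5 and 6, and at 3.16 CPM in DNBS mouse 16 and 0.119 and 0 CPM in mice 11 and 14. The part of these cells or of Ifng in the levels of the members was not tested.

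**Figure D4:**
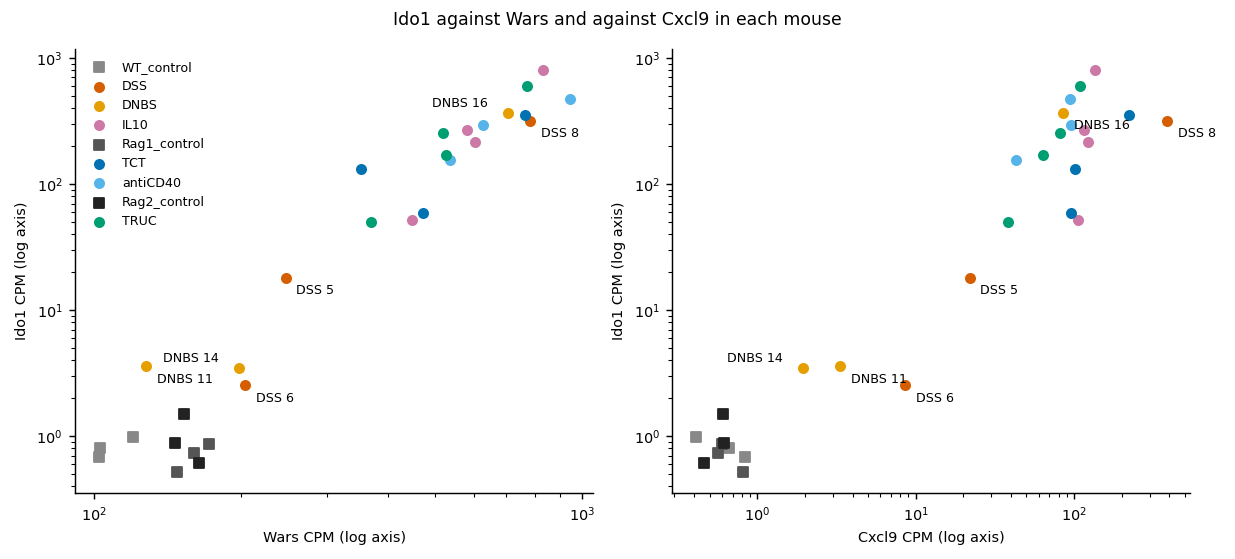
Ido1 level (y axis, CPM, log axis) against Wars (left) and the chemokine gene Cxcl9 (right) in each of the 29 mice, coloured by group, with squares for controls and the DSS and DNBS mice named by number. DSS mouse 8 and DNBS mouse 16 lay among the mice of the other 4 models for Ido1 and Wars. For Cxcl9 DNBS mouse 16 did too, but DSS mouse 8 was the highest of all mice (386 CPM, TCT mouse 5 next at 224 CPM). DSS mouse 6 and DNBS mice 11 and 14 were the lowest mice of the models for Ido1, Wars and Cxcl9.

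Across the 29 mice, log2 levels of Ido1 and Wars had a Pearson r of 0.969, those of Kmo and Haao 0.837, of Haao and Qprt 0.70 and of Ido1 and Kynu 0.696. Ido1 and Haao had 0.108 and Ido1 and Afmid -0.612. The mice share groups and controls, so these values describe the series and carry no test. Of all genes tested, the nearest to Ido1 were Gm4841 (r = 0.984), Igtp (0.980) and Ifi47 (0.974), and those nearest to Wars were Irgm1 (0.973), Batf2 (0.973) and Igtp (0.970). Those nearest to Kmo were Wdfy4 (0.947), Btk (0.938) and Traf3ip3 (0.930), and those nearest to Haao were H2-Ob (0.936), Cd79b (0.935) and Cxcr5 (0.924). The nearest genes were less alike for Ido2 (Slfn10-ps, 0.872, Myd88, 0.868, and Parp14, 0.864), Kynu (Kcnj10, 0.849, Il12b, 0.849, and Cass4, 0.847), Qprt (Fcrl5, 0.83, Gpr183, 0.821, and Rcsd1, 0.813) and Afmid (Snx21, 0.819, E230013L22Rik, 0.789, and Galnt7, 0.789). Beside summed marker levels on the same scale, Haao had r = 0.896 with B cell and 0.61 with T cell markers. Kmo had 0.798 with dendritic cell, 0.76 with B cell, 0.734 with macrophage and monocyte and 0.717 with T cell markers, and Kynu had 0.845 with dendritic cell and 0.778 with macrophage and monocyte markers. Ido1 had 0.702 with macrophage and monocyte, 0.69 with neutrophil, 0.671 with dendritic cell and 0.003 with B cell markers, so several lists moved with each of Kmo, Kynu and Ido1. Of the other lists, Ido1 had 0.495 with T cell, 0.456 with epithelial and 0.015 with surface colonocyte markers. It had -0.357 with liver, -0.663 with smooth muscle and -0.904 with acinar pancreas markers, the last in effect Cela1.

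**Figure D5:**
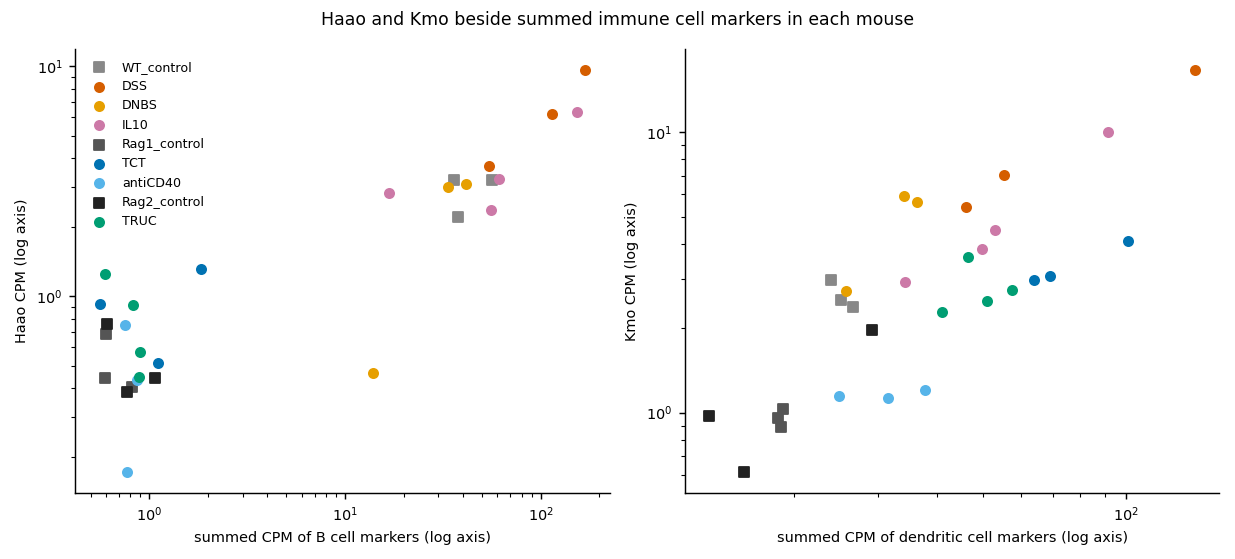
Haao against the summed B cell markers Cd79a and Ms4a1 (left) and Kmo against 7 summed dendritic cell markers (right) in each of the 29 mice, in CPM on log axes, with squares for controls. Mice with B cell markers under 2 CPM had Haao at or under 1.31 CPM, and DSS mouse 8, with the highest sum in both panels, had the highest Haao (9.68 CPM) and Kmo (16.7 CPM).

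The rest of the pathway was described with 6 lists of 71 genes, of which 62 were tested, and their counts are set beside the genes called lower as well as higher. Over all genes, 23.4% were called lower in TRUC, 16.3% in DSS, 2.21% in DNBS, 26.1% in IL10, 14% in TCT and 10.7% in antiCD40. Of the interferon genes, 11 of 13 were called higher in TRUC, 11 in DSS, 5 in DNBS, 12 in IL10, 11 in TCT and 11 in antiCD40, and 1, Ifngr2 in DSS (-0.67 ± 0.17, edgeR adjusted p = 0.00405), lower. Their median log2 fold change was 1.72, 1.95, 1.01, 3.26, 2.64 and 2.45 in the same order. Cxcl9, Cxcl10, Socs1 and Irf9, all known interferon-response genes, were called higher in all 6 models, with Cxcl9 at 5.52 ± 1.39 in DNBS (edgeR adjusted p = 0.0212) and 7.73 ± 1.43 in DSS (edgeR adjusted p = 0.000269). Cxcl9 was at 386 CPM in DSS mouse 8 and 21.9 and 8.55 CPM in mice 5 and 6, and at 85.6 CPM in DNBS mouse 16 and 3.34 and 1.94 CPM in mice 11 and 14, the same uneven split as in Ido1. Without DNBS mouse 16, or any 1 WT_control mouse, none of these 4 genes was called in DNBS, with Cxcl9 at 2.05 without mouse 16. Without DSS mouse 8, Socs1 was not called in DSS (2.09). The call of Irf9 was lost in TRUC without mouse 3 or Rag2_control mouse 2 or 4, in TCT without mouse 1 or 5 or Rag1_control mouse 3 or 4, and in antiCD40 without Rag1_control mouse 3 or 4. Against the other controls 11 of 13 were called higher in TCT and 9 in antiCD40.

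Of the other kynurenine and NAD enzymes, 12 of 14 were tested, and in TRUC 2 were called higher and 5 lower, in DSS 2 and 4, in DNBS 0 and 1, in IL10 2 and 5, in TCT 1 and 2 and in antiCD40 2 and 1. In DNBS 2 were higher and 1 lower at an unadjusted p under 0.05, and DESeq2 called 1 higher and 2 lower. Nampt, which salvages nicotinamide into NAD, was called higher in 5 models, from 1.15 ± 0.40 in antiCD40 (edgeR adjusted p = 0.0421) to 1.76 ± 0.41 in DSS (edgeR adjusted p = 0.0019), and was at 0.57 ± 0.40 in DNBS (edgeR adjusted p = 0.387). DSS mouse 8 had 492 CPM of Nampt and mice 5 and 6 had 126 and 117, and without mouse 8 the gene was not called (0.75). The call was also lost in TCT without mouse 5 (1.02) or Rag1_control mouse 3, and in antiCD40 without mouse 6 or 7 or any 1 control mouse, and it held in TRUC and IL10 whichever mouse was left out. Nadsyn1, which makes NAD from the product of the route through Qprt, was called lower in 5 models, down to -1.17 ± 0.16 in DSS (edgeR adjusted p = 9.84e-06), and of these calls the one in DNBS was lost without mouse 14 or 16 or any 1 control mouse. Nmnat3, which makes mitochondrial NAD, was called lower in 4 models, down to -2.02 ± 0.28 in TRUC (edgeR adjusted p = 9.98e-06). Tdo2, the liver counterpart of Ido1, was at a mean of 0.544 CPM in WT_control and was called lower in TRUC (-1.25 ± 0.32, edgeR adjusted p = 0.00282) and in IL10 (-1.18 ± 0.39, edgeR adjusted p = 0.0411). These levels were near the floor, with 0.356 to 0.55 CPM in TRUC and 0.0843 to 0.343 CPM in IL10, where 3 counts made 0.179 to 0.314 CPM. The call in IL10 was lost without IL10 mouse 1 or 2 or WT_control mouse 2 or 4. It was named after its values were seen, for its role.

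Among the transporters, Slc7a5, the large neutral amino acid carrier that imports tryptophan, was called higher in all 6 models, from 1.14 ± 0.30 in TCT (edgeR adjusted p = 0.00506) to 1.92 ± 0.29 in TRUC (edgeR adjusted p = 2.28e-05). The call was lost without TCT mouse 5 (0.84) in TCT and without antiCD40 mouse 7 (0.93) in antiCD40. It was at 5.79 to 8.20 CPM in WT_control and at 11.1 to 28.3 CPM in the DSS and DNBS mice, without overlap. DSS mouse 8 had 26.6 CPM, between mice 5 and 6 at 28.3 and 21.7, and DNBS mouse 16 had 28.0 CPM, where mice 14 and 11 had 22.6 and 11.1. Of the 7 transport genes tested, 1 was called higher and 2 lower in TRUC, 1 and 1 in DSS, 1 and 0 in DNBS, 1 and 3 in IL10, 2 and 1 in TCT and 1 and 1 in antiCD40. Slc6a14, an importer of neutral and basic amino acids, was called lower in TRUC, DSS and TCT, with -1.52 ± 0.34 in TCT (edgeR adjusted p = 0.00129), and its call in DSS was lost without mouse 8 or any 1 control mouse.

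Serotonin synthesis competes with the kynurenine pathway for tryptophan. Of 6 genes tested of the serotonin and other routes, 0 were called higher and 3 lower in TRUC, 1 and 4 in DSS, 0 and 4 in IL10 and 0 and 1 in TCT. In DNBS and antiCD40 edgeR called none. At an unadjusted p under 0.05, 0 were higher and 0 lower in DNBS, and 0 higher and 2 lower in antiCD40. DESeq2 called 0 higher and 1 lower in DNBS, and 1 higher and 2 lower in antiCD40. Tph1, the rate-limiting enzyme of gut serotonin, was at 87.4 CPM in DSS mouse 8, against 22.2 and 32.3 CPM in mice 5 and 6 and 14.5 to 22.97 CPM in WT_control. It was called higher in DSS (1.43 ± 0.39, edgeR adjusted p = 0.00619), but not without mouse 8 (0.64), and lower in IL10 (-1.44 ± 0.38, edgeR adjusted p = 0.00258) and TCT (-1.61 ± 0.40, edgeR adjusted p = 0.00378). Inmt, which methylates tryptamine, was lower in TRUC (-2.23 ± 0.66, edgeR adjusted p = 0.00825) and IL10 (-3.17 ± 0.71, edgeR adjusted p = 0.000734). Of the 5 genes of the aryl hydrocarbon receptor pathway tested, 0 were called higher and 1 lower in TRUC, 1 and 0 in DSS, 1 and 1 in IL10 and 0 and 2 in antiCD40. In DNBS and TCT edgeR and DESeq2 called 0, with 1 lower in DNBS and 0 in TCT at an unadjusted p under 0.05 in edgeR. Ahr itself was called lower in TRUC (-0.48 ± 0.13, edgeR adjusted p = 0.00493), IL10 (-0.50 ± 0.13, edgeR adjusted p = 0.00295) and antiCD40 (-0.49 ± 0.14, edgeR adjusted p = 0.0162), and the last of these calls was lost without antiCD40 mouse 6 or 7 (-0.46 to -0.52 over the mice left out). Its target Tiparp was called higher in DSS (1.37 ± 0.33, edgeR adjusted p = 0.00287) and IL10 (0.79 ± 0.32, edgeR adjusted p = 0.0388). Tiparp was at 90.1 CPM in DSS mouse 8, against 24.4 and 31.8 CPM in mice 5 and 6, and was not called there without mouse 8 (0.57). In IL10 the call was lost without mouse 4 (0.50) or any 1 control mouse. Cyp1a1, the classical target of the receptor, had 47 counts in all mice together and was not tested. Against WT_control, TCT had 2 genes higher and 3 lower among the other kynurenine and NAD enzymes, 1 and 1 in transport, 0 and 2 in the serotonin routes and 0 and 0 in the receptor pathway. Against Rag2_control, antiCD40 had 1 and 3, 1 and 1, 0 and 2 and 0 and 1 in the same order.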

How the data were processed

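Poly(A)-selected RNA of colon segments was sequenced from 29 mice. The deposited table holds raw counts per gene, made by the authors with Trimmomatic, HISAT2 and HTSeq on GRCm38 according to the submitters' processing notes, with versions not given in the sources used here. The 92 spike-in entries summed to 0 and were left out. Gene symbols, positions and exon lengths came from GENCODE M21, and RefSeq promoter windows were matched for 4 members. Counts were fitted in edgeR 4.0.16 (R 4.3.3) over all 9 groups with TMM scaling, a mean count of at least 3 and its quasi-likelihood test, adjusting p by Benjamini-Hochberg across 18616 genes, and the fit was tested on simulated data. The labels number the mice but name no litters or cages. No 2 libraries were identical. The 8 members and the gene lists were chosen with earlier results of these data known. One gene of the B cell marker list is not reported here and was left out of its sums, for a reason other than its values. Genes outside the 8 are named where they were called in the same direction in all 6 models, had the largest or smallest change of their list in a model, or were among the 3 genes nearest to a member by Pearson r over log2 CPM (prior count 2), apart from those said to be named after their values were seen. Alternatives were other scalings (RLE, upper quartile), other filters, a threshold of 0.01, DESeq2 1.42.0, fits of 2 groups alone, other controls, a replicate block and each mouse left out.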

Additional observations from a re-analysis of the deposited data

How the results depend on the processing

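Counts of members and of list genes called were within 1.5 times of those above under RLE and upper quartile scaling, both other filters and the other controls, but in TCT against WT_control the total of 4 members was 2 higher and 2 lower, where all 4 were higher against Rag1_control. In fits of the 2 groups alone Afmid was called lower in TRUC. At an adjusted p threshold of 0.01, 3 members were called in TRUC, 2 in IL10 and, by edgeR, 0 in DNBS (2 at an unadjusted p under 0.05), with 1 list gene in DNBS and 8 in antiCD40. In fits of the 2 groups alone 0 members (3 at an unadjusted p under 0.05 in edgeR) and 1 list gene were called in DNBS, and DESeq2 called 0 members there (2 at an unadjusted p under 0.05). With each mouse left out in turn, members called ranged from 3 to 5 in TRUC, 1 to 7 in DSS, 0 to 2 in DNBS, 2 to 4 in IL10, 2 to 4 in TCT and 2 to 2 in antiCD40. List genes called ranged from 32 to 39 in TRUC, 18 to 34 in DSS, 1 to 16 in DNBS, 34 to 41 in IL10, 16 to 31 in TCT and 10 to 27 in antiCD40. The lowest DSS counts were those without mouse 8, and the highest count of members in DSS that without mouse 6. In DNBS 1 list gene was called without mouse 16 or any 1 control and 16 without mouse 11. In IL10 2 members were called without mouse 3 or control 1 or 4, in TRUC 3 without control 1, in TCT 2 without mouse 5, and in antiCD40 10 list genes without mouse 7 and 11 without control 3. The cause of these changes, beyond the mouse left out, was not tested.

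Direction turned only where a member was not called above. With the other controls, Haao was -1.638 and Qprt -0.352 in TCT and Kmo -0.037 in antiCD40. With each mouse left out, values ranged in DNBS from -0.89 to 1.13 for Ido2, -0.453 to 0.291 for Kynu and -0.712 to 0.083 for Haao, in IL10 from -0.038 to 0.534 for Haao and -1.11 to 0.28 for Qprt, and in antiCD40 from -0.7 to 0.183 for Haao and -1.48 to 0.011 for Qprt. The labels do not say whether equal mouse numbers pair mice, and correlations over so few mice cannot settle it. Deviations of same-numbered mice correlated at 0.0556, 0.0139 and -0.0201 between IL10 and WT_control (mice 1, 2 and 4). Between TRUC and Rag2_control they correlated at -0.0518 and -0.00546 (mice 2 and 4). IL10 mice 1 and 2 correlated best with their own number, and IL10 mouse 4 and TRUC mice 2 and 4 did not. With the number as a replicate block, 2 members were called in IL10, with Haao at -0.037, and 5 in TRUC, with 36 and 43 list genes. No paired analysis was possible for DSS, DNBS, TCT and antiCD40 because they share fewer than 2 numbers with their controls. Groups of 3 or 4 mice and the low counts of Ido2 and Qprt limit what could be detected.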
